A study of Homo sapiens with 4 samples.

Results

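PLAU encodes urokinase-type plasminogen activator. The gene was followed through 1 of 24350 probes, GI_4505862-S, on 4 single-colour bead arrays of H9 cells, a long-established human embryonic stem cell line. The probe was taken by its identifier, the number of the RefSeq record of PLAU, a pairing given for this work and not by the files, which name no genes. It was singled out because its signal differed between the groups compared here, so its levels and changes are a description and carry no test. No other probe on the array bears the same record number.

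In both groups the cells were grown for 2 days on matrigel in medium conditioned by mouse embryonic fibroblasts. They were then kept for 24 h in unconditioned medium that lacked FGF2 (fibroblast growth factor 2) and contained 30 uM SU5402, an inhibitor of FGF receptor kinases. The FGF2-starved group was harvested at that point. In the FGF2 re-stimulated group the inhibitor was washed away and the cells received 40 ng/ml FGF2, again in unconditioned medium, for 4 h before harvest. There were 2 experiments with 1 starved and 1 re-stimulated array each, and per the labels the starved sample served as control within its experiment. Whether these were separate cultures is not stated in the labels, and both used 1 cell line. Loss of the inhibitor, washing, fresh medium and the added hours came together with FGF2 and cannot be told apart from it. The identity of the cells was not checked against stem cell or fibroblast markers, because no other identifier was matched to a gene.

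Urokinase is a secreted serine protease. It is released as an inactive single chain, binds the receptor encoded by PLAUR on the cell surface, and cleaves plasminogen to plasmin, which digests fibrin and matrix proteins and activates other proteases. PLAT encodes the other plasminogen activator. FGF2 is known to induce urokinase in endothelial cells, and PLAU transcription is known to respond to growth factors through the ERK pathway and AP-1 and ETS family factors. The probes for PLAUR, PLAT and the other listed genes of the plasminogen system and of the FGF and ERK response were not analysed here, as their identifiers were not matched.

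PLAU lies on chromosome 10, at 73908832 to 73917494 of GRCh38.p14, and spans 8663 bases with 11 RefSeq transcripts. RefSeq promoter windows were given for 2 start sites, both on the plus strand and both inside the span of the gene. The span begins at 73908832, before both windows, and no window was given for a start there. First and second below number only the 2 windows given. The 250 bases before each of these 2 starts are shown because the array reports the transcript and not which start made it. Capitals mark matches on either strand to GGAAG, the core of ETS factor sites, and to GGGCGG, the GC box. Neither window held TGANTCA, the AP-1 motif, or TATAAA, the TATA box.
PLAU first start, chr10:73910360-73910609: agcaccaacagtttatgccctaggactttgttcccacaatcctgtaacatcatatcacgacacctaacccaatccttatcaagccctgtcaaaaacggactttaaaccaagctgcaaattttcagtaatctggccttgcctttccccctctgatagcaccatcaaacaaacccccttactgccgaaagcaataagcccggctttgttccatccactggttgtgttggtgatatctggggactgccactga
PLAU second start, chr10:73910882-73911131: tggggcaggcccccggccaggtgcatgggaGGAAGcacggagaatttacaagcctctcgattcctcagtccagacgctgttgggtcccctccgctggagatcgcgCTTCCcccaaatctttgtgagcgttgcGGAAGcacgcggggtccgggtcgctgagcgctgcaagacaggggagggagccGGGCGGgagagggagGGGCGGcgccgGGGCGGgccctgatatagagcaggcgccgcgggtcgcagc

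The first window had a GC content of 46.8% and matched none of the 4 motifs. The second had a GC content of 68.8% and held 3 matches to GGAAG, beginning 220, 145 and 118 bases before the start, and 3 matches to GGGCGG, beginning 66, 51 and 40 bases before it. No match of one motif overlapped a match of the other. Of 35116 promoter windows of the same length, 65.1% held GGAAG, 42.6% held GGGCGG, 6.57% held TGANTCA and 10.7% held TATAAA. These matches describe letters in a window. They are not measured binding sites, and the AP-1 and ETS enhancer known for this gene lies further upstream.

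PLAU was already well above background in starved cells and was among the brightest transcripts on the array after FGF2 return. Its deposited signal, a mean bead intensity before any scaling, was 4075.8 in starved cells of experiment 1 and 4514.7 in those of experiment 2. After re-stimulation it was 22161.2 in experiment 1 and 25140.3 in experiment 2. Both re-stimulated arrays were thus far above both starved arrays and the groups did not overlap. On the normalized scale, 22.6% of the 10886 probes tested across the array also had both re-stimulated arrays above both starved arrays. The detection score, which runs from 0 to 1, was 1 on all 4 arrays. Group means were 4295 ± 310 in starved and 23651 ± 2107 in re-stimulated cells (SD, n = 2 per group).

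**Figure D1:**
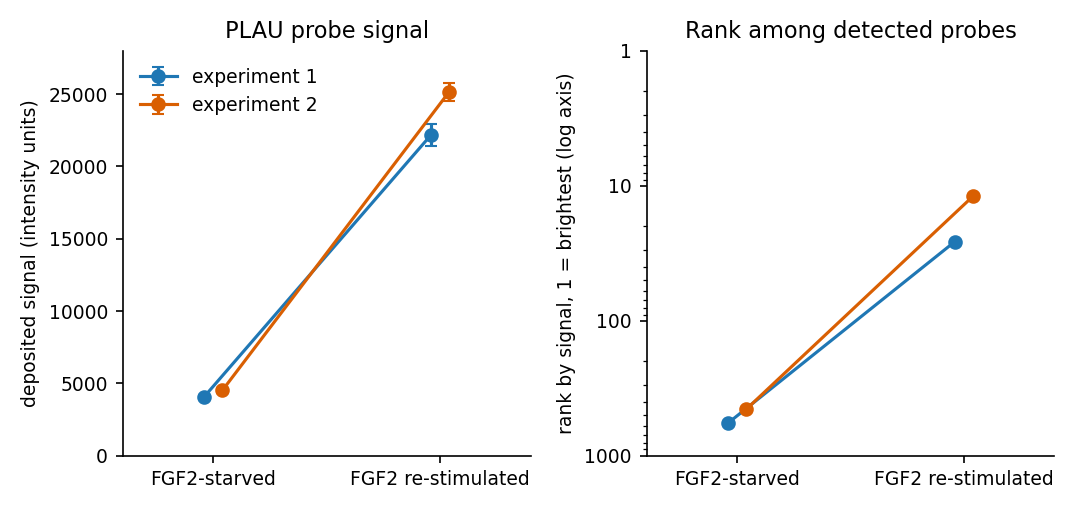
The left panel plots the deposited signal of the PLAU probe in intensity units, with the deposited bead spread (SD or standard error not stated) as error bars and a line joining the 2 arrays of an experiment; the right panel plots its rank by signal among detected probes on a log axis with rank 1 at the top. The starved arrays sit at 4075.8 and 4514.7 and the re-stimulated arrays at 22161.2 and 25140.3, and the rank moved from 573 to 26 in experiment 1 and from 453 to 12 in experiment 2.

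The spread of the beads was small beside this difference. The deposited bead spread of the PLAU probe was 115.2 and 165.6 in starved and 766.9 and 639.1 in re-stimulated cells, in experiments 1 and 2. Relative to the signal this was 2.54% to 3.67% over the 4 arrays, close to the median of detected probes, which lay between 3.25% and 3.34%. The signal difference was 20.5 times the summed bead spreads of the 2 arrays in experiment 1 and 25.6 times in experiment 2. The files do not say whether this spread is an SD over beads or a standard error, so the ratios are relative to the deposited value only. It covers the measurement on 1 array and not the variation between cultures.

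The size of the rise was nearly the same in the 2 experiments. The deposited signals gave 5.44-fold in experiment 1 and 5.57-fold in experiment 2, without subtraction of background or scaling. The authors' processed values went from 3718 to 23638 in experiment 1, a 6.36-fold difference. In experiment 2 they went from 4152 to 26746, a 6.44-fold difference. After background correction and quantile scaling the PLAU level on the log2 scale went from 11.83 to 14.47 in experiment 1 and from 12.12 to 14.79 in experiment 2. The log2 change was 2.63 (6.20-fold) and 2.66 (6.34-fold), with a mean of 2.65 ± 0.02 (SD, n = 2 experiments), or 6.27-fold. The median log2 change of the probes detected on all 4 arrays was -0.03. Setting any re-stimulated array against any starved array, the deposited fold ran from 4.91 to 6.17.

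**Figure D2:**
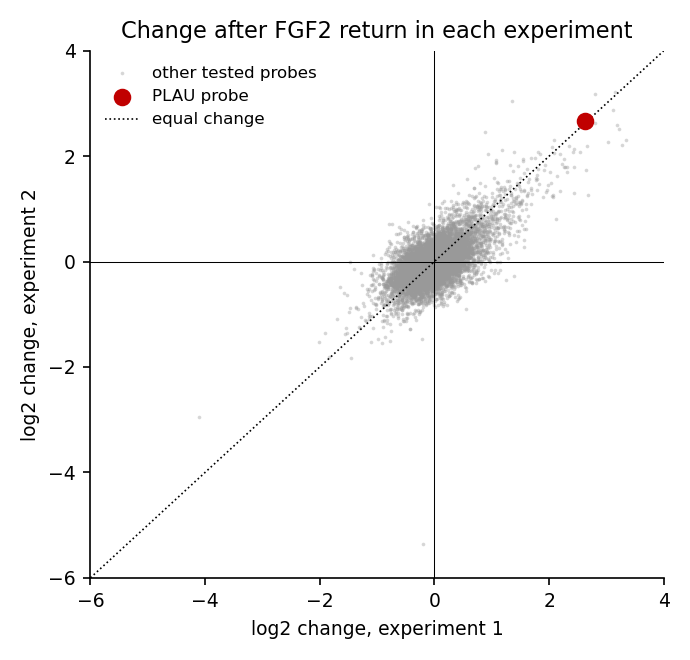
Each point is 1 of the 10886 tested probes, with its log2 change after FGF2 return in experiment 1 on the x axis and in experiment 2 on the y axis; the dotted line marks equal change. The PLAU probe (red), at 2.63 and 2.66, lies close to that line and in the upper corner of the cloud.

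The changes in PLAU differed by 0.03 on the log2 scale between the experiments, and 8.98% of the 9955 probes detected on all 4 arrays had a smaller gap. The median gap was 0.20. The level of PLAU did differ between experiments: experiment 2 was higher by 0.29 in starved and by 0.32 in re-stimulated cells on the normalized log2 scale. In deposited signal the shift was smaller, at 1.11-fold in starved and 1.13-fold in re-stimulated cells. The normalized shift had the same sign in both groups and was small beside the change of 2.65. A larger shift between experiments, of either sign, was found for 16.8% of the 9955 probes. The shift between experiments was thus well under the change with FGF2 return.

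As background for these values, 821 of the 10886 tested probes (7.54%) were called higher and 677 (6.22%) lower after re-stimulation, at a Benjamini-Hochberg adjusted p under 0.05 from limma, blocked on the experiment. Calls with a rise of at least 2-fold made up 1.86% of tested probes, and calls with a rise of at least 4-fold 0.257%. PLAU was 1 of the 28 probes in the last class. Nothing is read from its call, because it was chosen on this contrast. The calls depend on the block: without it 186 probes were higher and 34 lower, and with any 1 array left out limma called 0.

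Among fold changes PLAU ranked 10th of the 9955 probes detected on all 4 arrays. In experiment 1 it ranked 12th of 10373 probes detected on both arrays, where the top rise was 10.1-fold. In experiment 2 it ranked 5th of 10260, where the top rise was 9.32-fold. The rank depends on how background is treated. By deposited fold, with no background subtracted, PLAU ranked 5th in experiment 1 and 1st in experiment 2. By the authors' values it ranked 14th and 11th. The neighbours of PLAU by mean change were at 6.29-fold, just above it, and at 5.36-fold, just below.

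The 9 probes with a larger mean rise were all dimmer than PLAU in starved cells. Their mean deposited signal ran from 171.1 to 832.1 before and from 509.3 to 4675 after FGF2 return, and their rises reached 9.10-fold. With no background correction PLAU ranked 1st by mean change, and none of the 9 then rose more. The median log2 level of the 9 in starved cells was 6.43, against 11.98 for PLAU and a floor of 5.52. PLAU thus combined a rise of this size with a high starting signal, which none of the 9 had. Brightness also depends on how well a probe binds, so ranks of signal order the probes and not the numbers of molecules.

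**Figure D3:**
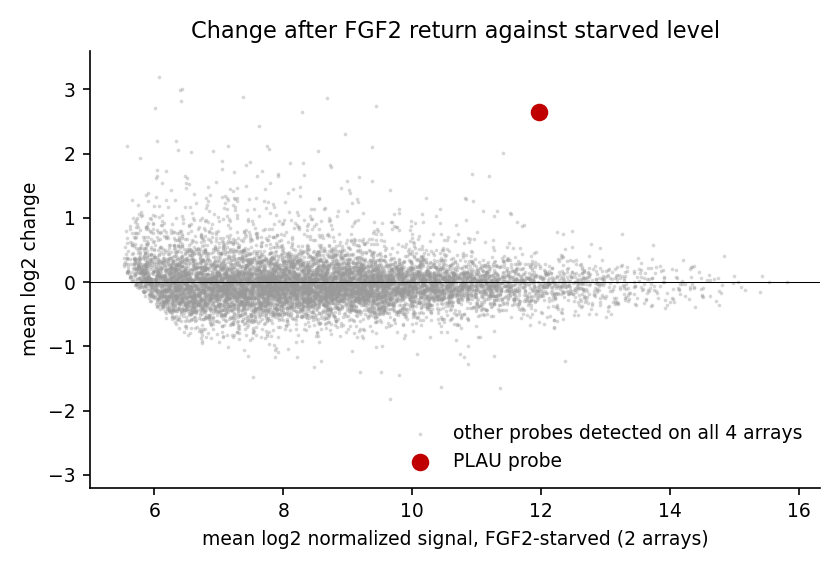
Each point is 1 of the 9955 probes detected on all 4 arrays, with its mean log2 normalized signal in the 2 starved arrays on the x axis and its mean log2 change after FGF2 return on the y axis. The PLAU probe (red), at 11.98 and 2.65, stands above the other bright probes, while the probes with larger rises lie to its left.

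PLAU belonged to the brightest 10% of the probes in starved cells, 996 probes with a log2 level of 11.14 or more. Among these 996 its mean rise was the largest, at 6.27-fold, and the next largest was 4.02-fold. Counted by mean change with no test, 7 of the 996 probes (0.703%), PLAU included, were higher by 2-fold or more and 2 (0.201%) by 4-fold or more. The shares among all 9955 probes detected on all 4 arrays were 1.67% and 0.241%, so the share at 4-fold was close to that of the array. Most of these bright probes moved little. Their median log2 change was -0.04, with quartiles at -0.18 and 0.10, and the lowest was -1.64. In the limma fit, 4.92% of these probes were called higher and 8.43% lower, against 7.54% and 6.22% of all tested probes. Many of the 996 were dimmer than PLAU in starved cells, the probe with the 4.02-fold rise among them. Of the 506 probes above PLAU in starved cells, 0 were higher by 2-fold or more, and the largest rise among them was 1.73-fold.

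By brightness, PLAU moved from rank 573 of 11048 detected probes in starved cells to rank 26 of 10765 in re-stimulated cells of experiment 1. In experiment 2 it moved from rank 453 of 11124 to rank 12 of 10609. Brighter probes thus fell from 5.18% to 0.232% of those detected in experiment 1 and from 4.06% to 0.104% in experiment 2. The PLAU signal was 9.76 and 12.2 times the median detected signal in starved and 54.2 and 67.6 times in re-stimulated cells. The brightest probe on each array read between 52188 and 62020, so PLAU was not at the top of the recorded range on any array.

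On the mean normalized scale, 18 probes were brighter than PLAU after FGF2 return. Their log2 changes ran from -0.17 to 0.41 with a median of 0. None of them had risen by 2-fold or more. Quantile scaling gives each rank the same value on every array, so changes this small among the brightest probes are partly set by it. By rank, PLAU had come level with probes that were bright in both groups.

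The PLAU probe also had the largest gain in deposited signal of all probes detected on both arrays of an experiment, in each experiment. It gained 18085 intensity units in experiment 1 and 20626 in experiment 2. The second largest gain was 15211 units in experiment 1, from a probe already at 29636 in starved cells that rose 1.51-fold. In experiment 2 it was 6336 units, from a probe at 3400 that rose 2.86-fold. PLAU led by 1.19 times in experiment 1 and by 3.26 times in experiment 2, so its lead differed between the experiments. Its gain alone was 2.95% of the summed gains of the 3383 probes whose signal went up in experiment 1, and 5.51% of those of 3217 probes in experiment 2.

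**Figure D4:**
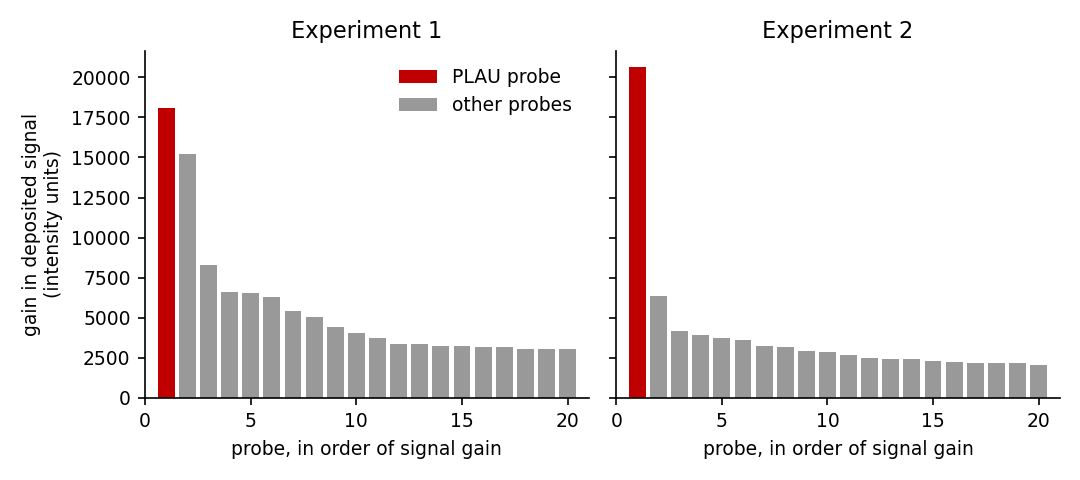
Bars give the gain in deposited signal, in intensity units, of the 20 probes with the largest gains in experiment 1 (left) and experiment 2 (right), in falling order. PLAU (red) is first in both, at 18085 and 20626, and the second bar is at 15211 in experiment 1 and 6336 in experiment 2.

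These gains stood against arrays that were dimmer as a whole in deposited signal after re-stimulation. The mean deposited signal of all probes was 592.3 on the starved and 549.4 on the re-stimulated array of experiment 1, and 534.5 and 496.3 in experiment 2. The median deposited fold of probes detected on both arrays was 0.933 and 0.935. Only 32.6% of probes in experiment 1 and 31.4% in experiment 2 gained deposited signal, and PLAU was among them in both. The authors' values went the other way. Their median over detected probes rose from 275.9 to 310.1 in experiment 1 and from 236.4 to 273.9 in experiment 2. Their factors on the deposited signal were 0.94 for both starved and 1.07 for both re-stimulated arrays. In the authors' values the PLAU probe made up 0.0348% of the summed signal of detected probes in starved and 0.212% in re-stimulated cells of experiment 1. The shares were 0.0436% and 0.272% in experiment 2. The part that fewer probes detected and lower mean deposited signal had in the size of the PLAU change was not tested. The change was 5.62-fold with no scaling between arrays.

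Likeness of pattern was measured as the Euclidean distance between log2 normalized signals over the 4 arrays, each probe centred on its own mean, among the other 9954 probes detected on all 4. With 4 arrays this measure mostly follows the size and direction of the change, so it leans on the same contrast. The probe most like PLAU was GI_20270326-S, at a distance of 0.22 where the median probe was at 2.71. Its deposited signal was 174.4 and 167.7 in starved and 533 and 485.6 in re-stimulated cells of experiments 1 and 2. That was a normalized rise of 6.97-fold and 6.20-fold, from a much lower signal than that of PLAU. Its deposited signals, with no background subtracted, gave smaller folds than these and than those of PLAU. Its starved signal was not far above the 124.5 and 118.7 units taken off the starved arrays in the authors' values. The part of background subtraction in its likeness to PLAU was not tested.

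Next was GI_4505460-S, at a distance of 0.43. It read 274 and 354.6 in starved and 1066 and 1168.6 in re-stimulated cells, a normalized rise of 6.32-fold and 4.55-fold. Its deposited folds were smaller here too. In starved cells it ranked 6553rd of the 9955 probes by normalized level, and GI_20270326-S ranked 9562nd, where 506 probes were above PLAU. Both likest probes were therefore far dimmer than PLAU. They are named by identifier only, as their genes were not matched.

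The rise of PLAU kept its direction and stayed between 5.62-fold and 7.12-fold in the 12 other settings of background, scaling, floor, values, block and arrays in which it was computed. The low end came without scaling between arrays and the high end without the re-stimulated array of experiment 1. With 1 array left out, the remaining array of its group was set against the mean of both arrays of the other group. Those values therefore take in the shift between experiments.

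**Figure D5:**
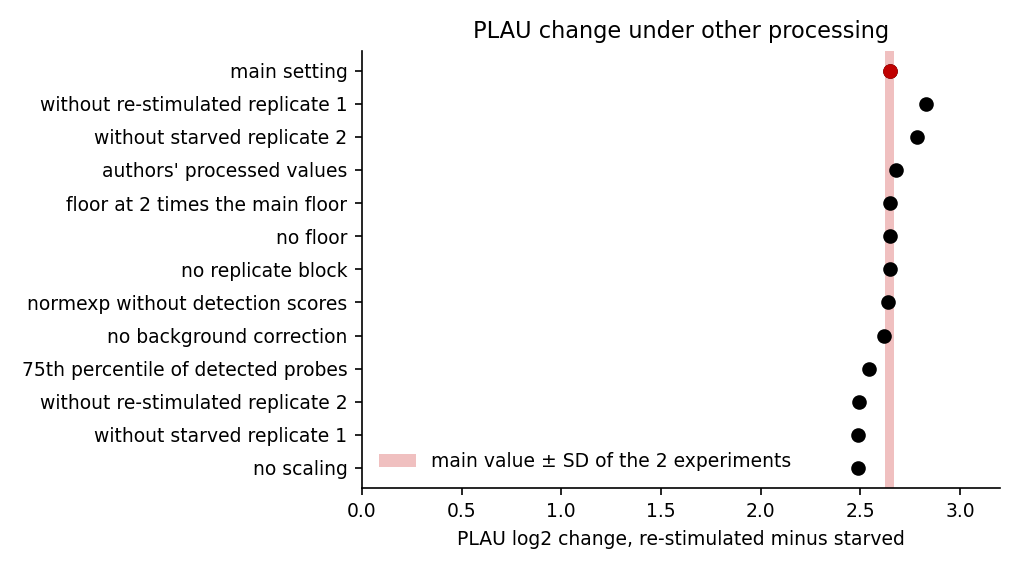
Points give the PLAU log2 change, re-stimulated minus starved, in the main setting (red) and in each of the 12 other settings (black), with the main value of 2.65 ± 0.02 (SD of the 2 experiments) as a shaded band. All points lie between 2.49 and 2.83, the span also covered by the 4 settings that leave out 1 array.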

How the data were processed

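From each sample 300 ng of total RNA went, per the labels' protocols, into a linear amplification (in vitro transcription for 6 h) with Cy3 label. The submitters' processing notes name BeadStudio 1.0. Per the file headers, each deposited array file gives the mean bead intensity, the bead spread in the same intensity units and a detection score, a fraction from 0 to 1. The authors' processed intensities in the series table were a straight line of each array's deposited intensities, to within 0.10 units, and were given for detected probes alone. The choice of their factors is unstated.

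From the deposited intensities, normexp background correction (limma 3.58.1, R 4.3.3) was run with 1 minus the detection score as a p-value and an offset of 16, followed by quantile scaling of the 24350 GI probes without the 4 controls. Signals under 45.96 (log2 5.52) were raised to that floor, the median of the 4 arrays' lowest normalized signals among detected probes. Probes scoring over 0.99 counted as detected. The 10886 probes detected throughout 1 group or both were tested two-sided with lmFit and eBayes (trend = TRUE), blocking on the experiment because the labels pair the samples. Deviations of same-numbered arrays correlated at r = 0.35. The tests have 1 residual degree of freedom per probe and rest largely on the pooled variance. If the experiments shared a culture, the p-values measure technical spread.

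On 6 simulated sets (median 10888.5 probes tested), this comparison recovered 78.2% of 1.5-fold, 99.5% of 2-fold and 100% of 4-fold changes. Of all calls made in these sets, 6.09% were false, at an adjusted p threshold of 0.05. That share depends on how many probes were changed, which the simulation set, so it does not carry over to the real calls. The noise followed the fitted variances, so the recovery is partly built in. Changes were placed only in probes with a mean log2 level more than 1.5 above the floor. The recovery rates therefore do not cover dimmer tested probes. No shift between experiments was simulated, although the fit blocks on the experiment. Precision is limited by the number of arrays, which have no read depth.

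PLAU was always named, and the 2 probes nearest to it by pattern were named by rule. The PLAU probe and the gene lists were chosen with earlier results of these data known. The lists for the plasminogen system, the FGF and ERK response, stem cells and fibroblasts gave no result, because the gene table matched 0 of 24350 identifiers. Gene coordinates and promoters are from RefSeq on GRCh38.p14. Alternatives covered background, scaling, floor, filter, prior, block, the authors' values and each array left out.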

Additional observations from a re-analysis of the deposited data

How the results depend on the processing

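With 2 arrays per group, the number of arrays limits the precision. PLAU was detected on every array, so its own change did not rest on the floor. The PLAU log2 change of 2.65 was 2.62 with no background correction, 2.49 with no scaling, 2.54 with scaling to the 75th percentile of detected probes and 2.68 with the authors' values. With 1 array left out it ran from 2.49 to 2.83. It stayed within its SD of 0.02 with the other background method, both other floors and no replicate block, the last by construction. Its rank of 10 by change was 1 with no background correction and ran from 4 to 11 with 1 array left out, at 4 when experiment 1 lacked its re-stimulated array. The mean PLAU rank by level, 513 in starved and 19 in re-stimulated cells, ran from 453 to 573 and from 12 to 26 with 1 array left out; the other settings keep the order of probes within an array, so this rank is fixed in them by construction. The counts of called probes, 821 higher and 677 lower, moved more. Without the replicate block they were 186 and 34. With the floor at 2 times they were 0 and 0 in limma (1715 at an unadjusted p under 0.05). With any 1 array left out they were 0 and 0 in limma (1311 to 2039 at an unadjusted p under 0.05), in fits without a block that take the single remaining array to vary as the opposite group does. With no detection filter they were 1515 and 1506, where limma warns that its moderation is unreliable. The lower count was 1160 with no scaling, 1196 with the 75th percentile, 413 with eBayes without a trend and 268 with the authors' values. Scaling also moved the split of calls, with 595 higher under no scaling and 899 under the 75th percentile. The authors' values, which differ in both background and scaling, gave 882 higher. Fits with 1 array less have fewer samples by construction. For the other settings the cause was not tested.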
